A study of Drosophila melanogaster with 6 samples.

Results

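DNA transposons and Helitrons are the transposable elements that move as DNA, and in the deposited table they are the 24 transposon families whose class name starts with DNA or RC, out of 127 families listed. The rule used only the class written after the family name. It gave 11 Tc1-Mariner families, 6 Transib families, 2 families of the P class, 1 family each of hAT, PiggyBac and MuDR, INE-1 under DNA/Helitron and Helitron under RC/Helitron. RNA came from ovaries of Drosophila melanogaster aged 3 to 6 days, in 6 polyA libraries of 3 replicates per genotype. The homozygotes were flamDeltaProm/flamDeltaProm, lacking the promoter of flamenco on both X chromosomes, and the controls were flamDeltaProm/FM7, with the deletion on one X and a balancer on the other. Both groups were +/+ on the remaining chromosomes as labelled, so every library came from females with at least 1 copy of the deletion. The labels do not say how many animals went into a library or whether replicates were separate crosses, and p-values therefore reflect only how far these samples spread, possibly for technical reasons.

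A complete DNA transposon carries a gene for a transposase, which binds the inverted repeats at the element's ends, cuts the element out and inserts it elsewhere. Helitrons instead are thought to move by rolling-circle replication. In the fly ovary, transposons are silenced by piRNAs, small RNAs bound to Piwi-class proteins. Follicle cells, the somatic layer around the germ line, rely mainly on piRNAs from flamenco, which is known above all for targeting LTR retrotransposons, while germ cells use several other clusters, among them 42AB on chromosome 2R. The comparison asks how RNA of the cut-and-paste elements differs between ovaries with no intact flamenco promoter and ovaries with 1. Only the controls carry the FM7 balancer X, so loss of the promoter and absence of that chromosome cannot be told apart.

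Library totals ran from 19564819 to 23181058 counts. Homozygotes had less flamenco RNA, 0.506 ± 0.255 CPM (counts relative to the scaled library size; SD, n = 3) against 1.94 ± 0.0267 (log2 fold change -1.93, SE 0.39, adjusted p = 0.0119 by edgeR's quasi-likelihood test), a call kept in all 6 fits without 1 library. None of 6 germ line markers passed the threshold by edgeR, with a median log2 fold change of 0.13, and they summed to between 3011.5 and 3374.9 CPM in homozygotes and between 2899.6 and 3248.7 in controls. DESeq2 called 2 of them higher and 1 lower, and without homozygous replicate 1 edgeR called 2 higher. Of 6 follicle cell markers, 1 was higher and 3 were lower, or 2 lower without homozygous replicate 2 or 3 or FM7 replicate 1. All 6 haemocyte markers were higher, summing to between 46.5 and 74.2 CPM in homozygotes against between 5.16 and 7.99 in controls (with 5 or 6 called in each fit without 1 library). Of 6 muscle sheath markers 4 were higher, but 0 without FM7 replicate 1 or 3, 1 without homozygous replicate 2 and 2 without homozygous replicate 3. Of 4 tested fat body markers 2 were higher, or 1 without FM7 replicate 1 or 3. The untested fat body markers Fbp1 and Fbp2 had lower means in homozygotes, 0.042 against 0.283 CPM and 0.014 against 0.154 CPM. In whole ovaries, fewer cells of a type and less RNA per cell cannot be told apart.

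The summed RNA of the DNA transposon families differed little between the genotypes, by a ratio of 1.07 or 1.13 depending on the scaling. The Helitron families INE-1 and Helitron had no counts. Summed RNA of the other transposon families was several times higher in homozygotes. The 24 families together held 1920, 1779 and 1954 counts in the homozygous libraries, given here and below in the order of replicates 1, 2 and 3, and 1652, 1425 and 1557 in the control libraries. With scaled library sizes these sums were 81.2, 74.4 and 82.5 CPM in homozygotes and 74.0, 75.9 and 73.0 CPM in controls. The groups overlapped, since homozygous replicate 2 lay below control replicate 2. The mean was 79.4 ± 4.34 CPM among homozygotes against 74.3 ± 1.47 among controls (SD, n = 3), and their ratio was 1.07. The other transposon families summed to 8883 ± 1624 CPM among homozygotes against 1568 ± 338 among controls, and their ratio was 5.66. As a percentage of all counts without scaling, DNA transposons and Helitrons took 0.00835%, 0.00768% and 0.00846% of homozygous and 0.00713%, 0.00728% and 0.00724% of control libraries, so on that scale the groups did not overlap, and the ratio of their means was 1.13. The share of all counts was the planned measure, and the scaled sum was added after seeing the data. The choice of scaling thus decides whether the groups overlap, and the sum was given no test. Within transposon RNA, the share of these families was lower in each homozygous library, at 1.10%, 0.702% and 0.925%, than in each control library, at 4.05%, 4.11% and 5.83%. That share follows from the higher sum of the other families in its denominator, and does not show a fall of these families.

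**Figure D1:**
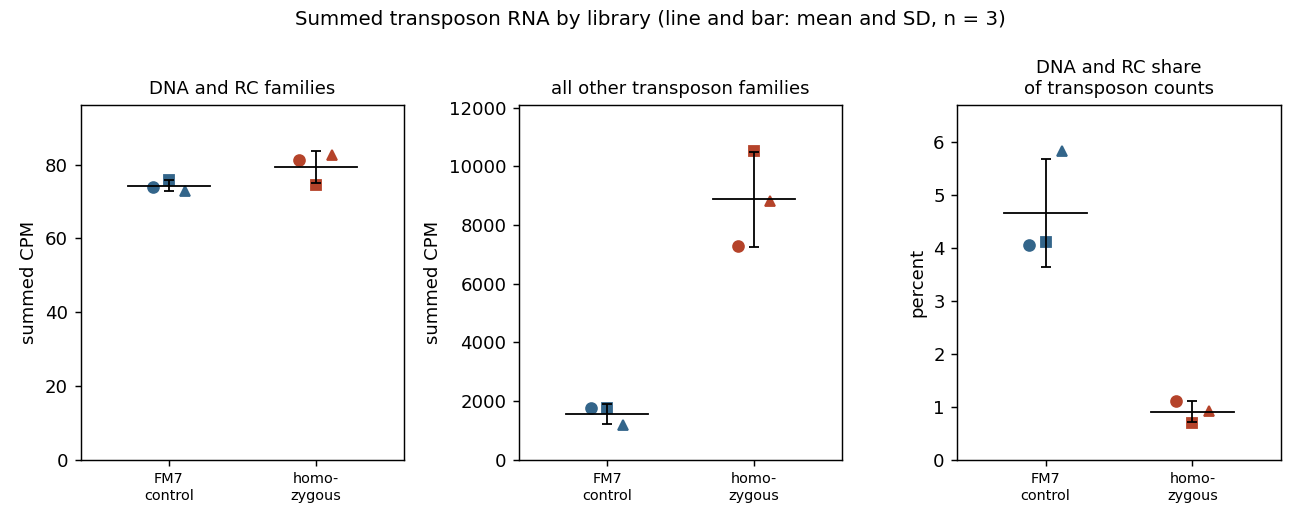
Summed RNA of DNA and RC families (left, CPM), of all other transposon families (middle, CPM) and the share of DNA and RC families in transposon counts (right, percent) for each library, with circles, squares and triangles for replicates 1, 2 and 3 and the mean and SD of n = 3 as line and bar. The groups overlap on the left at means of 74.3 and 79.4 CPM, and lie apart in the middle and on the right.

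The expression filter kept 11 of the 24 families, all of them of DNA classes, and 1 of the 11 was higher and none was lower in homozygotes. Among all 9229 genes and families tested, 12.0% were called higher and 7.71% lower, so a count of 1 in 11 is near that background. Of the 11, 3 had groups that did not overlap, transib1 and NOF with homozygotes above and Tc1-2 with homozygotes below, against 41.9% of all features. The family called, transib1, passed the filter only through the homozygous libraries. At an unadjusted p under 0.05, 2 of the 11 differed, transib1 and NOF, both with homozygotes above, while 35.6% of all features differed at that threshold. DESeq2 also called 1 higher and 0 lower. The median log2 fold change of the 11 was 0.071, also with transib1 set at its fold against a floor of 3 control counts, against -0.0082 over all features tested. Among the other classes, 28 of 46 tested LTR families were higher and 3 lower, with a median of 1.31, and 3 of 22 tested LINE families were higher, with a median of 0.26. The counts over all features rest in part on single libraries. They were 1103 higher and 712 lower with all libraries, 548 and 227 without homozygous replicate 3, and 572 and 288 without FM7 replicate 1, while leaving out homozygous replicate 2 or FM7 replicate 2 gave 317 and 427 lower. With library sizes alone as the scaling, 1573 were higher and 323 lower.

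**Figure D2:**
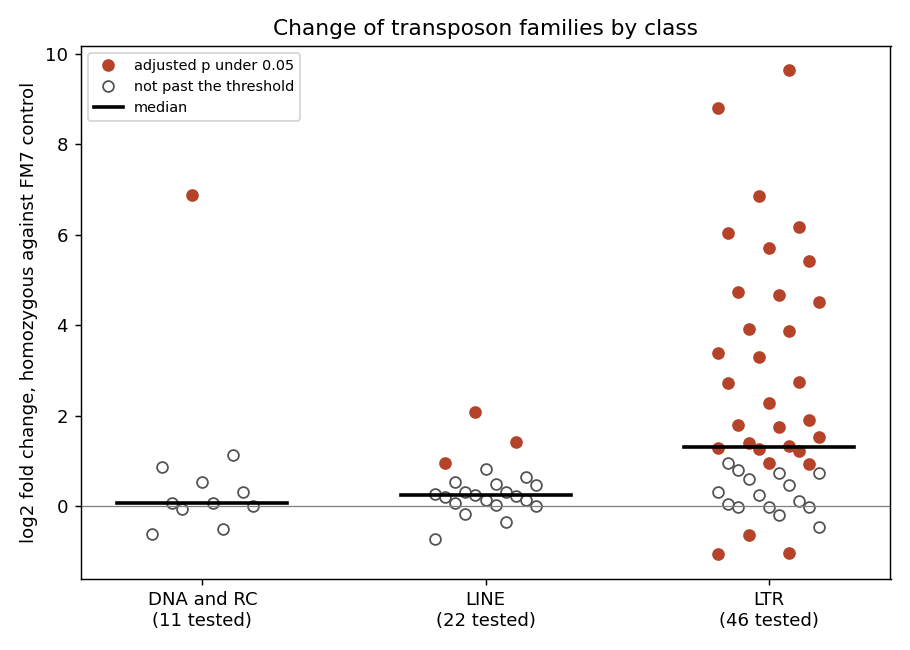
Fitted log2 fold change of each tested transposon family (points, vertical axis, homozygous against FM7 control) by class, with filled points past an adjusted p of 0.05 and a bar at the class median. DNA and RC families have 1 filled point among 11, transib1, whose fitted value depends on the prior count because controls had no counts, and the LTR families have 31 among 46.

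transib1 was the family that rose. Transib elements encode a transposase related to RAG1, the recombinase of antibody gene rearrangement in vertebrates. It had 11, 23 and 13 counts in homozygotes, while each control library had 0. The groups did not overlap, and homozygous replicate 2 had the most counts. These are 0.465, 0.962 and 0.549 CPM. About 3 counts are the one-sided 95% limit of counting error for a count of 0, and correspond to between 0.126 and 0.160 CPM in a library. Against a floor of 3 counts over the whole control group, transib1 was 13.7-fold higher, a value that leaves out the counting error of its own 47 counts. The exact 95% interval of the count ratio, which includes that error, starts at 10.7. Its adjusted p was 0.0058 by edgeR's quasi-likelihood test, and from 2.8e-04 to 0.0243 over the 14 other fits that included it, among them all 6 that left out 1 library. These fits reuse the same counts, and transib1 passed the filter only through the homozygous libraries. A filter that asked for 1 CPM in 3 libraries removed it, and then none of the tested DNA families was higher. Floors and count intervals account for counting error alone and leave out the spread between replicate libraries. They also treat each count as a separate observation, which PCR copies of a molecule are not.

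None of the other Transib families was called. transib3 had 12, 7 and 16 counts in homozygotes and 15, 12 and 20 in controls, and its log2 fold change was -0.61 (SE 0.40, adjusted p = 0.31). Its groups overlapped. Summed over each group, transib2 had 7 counts in homozygotes against 6 in controls, transib4 had 4 and 4, hopper 7 and 3 and hopper2 1 and 0. With transib1 included, the class summed to 1.06, 1.72 and 1.48 CPM in homozygotes and 0.807, 1.01 and 1.08 in controls, so its groups overlapped as well. The sources used here do not say how reads shared by related families were counted.

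The annotation of BDGP6.54 lists 3 insertions of transib1, none of them inside a gene. That build may not be the one the authors used, and which copies gave the reads cannot be told from family counts. One spans 2R from 4509471 to 4511157 on the minus strand. It lies between lncRNA:CR44100, at 1026 bases, and RpL38, which encodes a ribosomal protein and whose 3′ end faces the copy at 4231 bases. Another lies on the plus strand of 2R from 6469276 to 6481256, a span of 11981 bases that may include nested elements. It falls between Pld and jing, the genes that flank the 42AB cluster. The remaining one is a 75-base fragment on 3L, from 23470747 to 23470821. RpL38 (log2 fold change -0.086, adjusted p = 0.473) and jing (0.086, adjusted p = 0.559) were not past the threshold by edgeR. Pld was lower (-0.31, SE 0.07, adjusted p = 0.023), a call lost without FM7 replicate 1 or homozygous replicate 1 or 3, with an adjusted p up to 0.0948. Haemocyte markers, which had a median log2 fold change of 3.19, rose beside transib1, and their part in its rise was not tested.

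**Figure D3:**
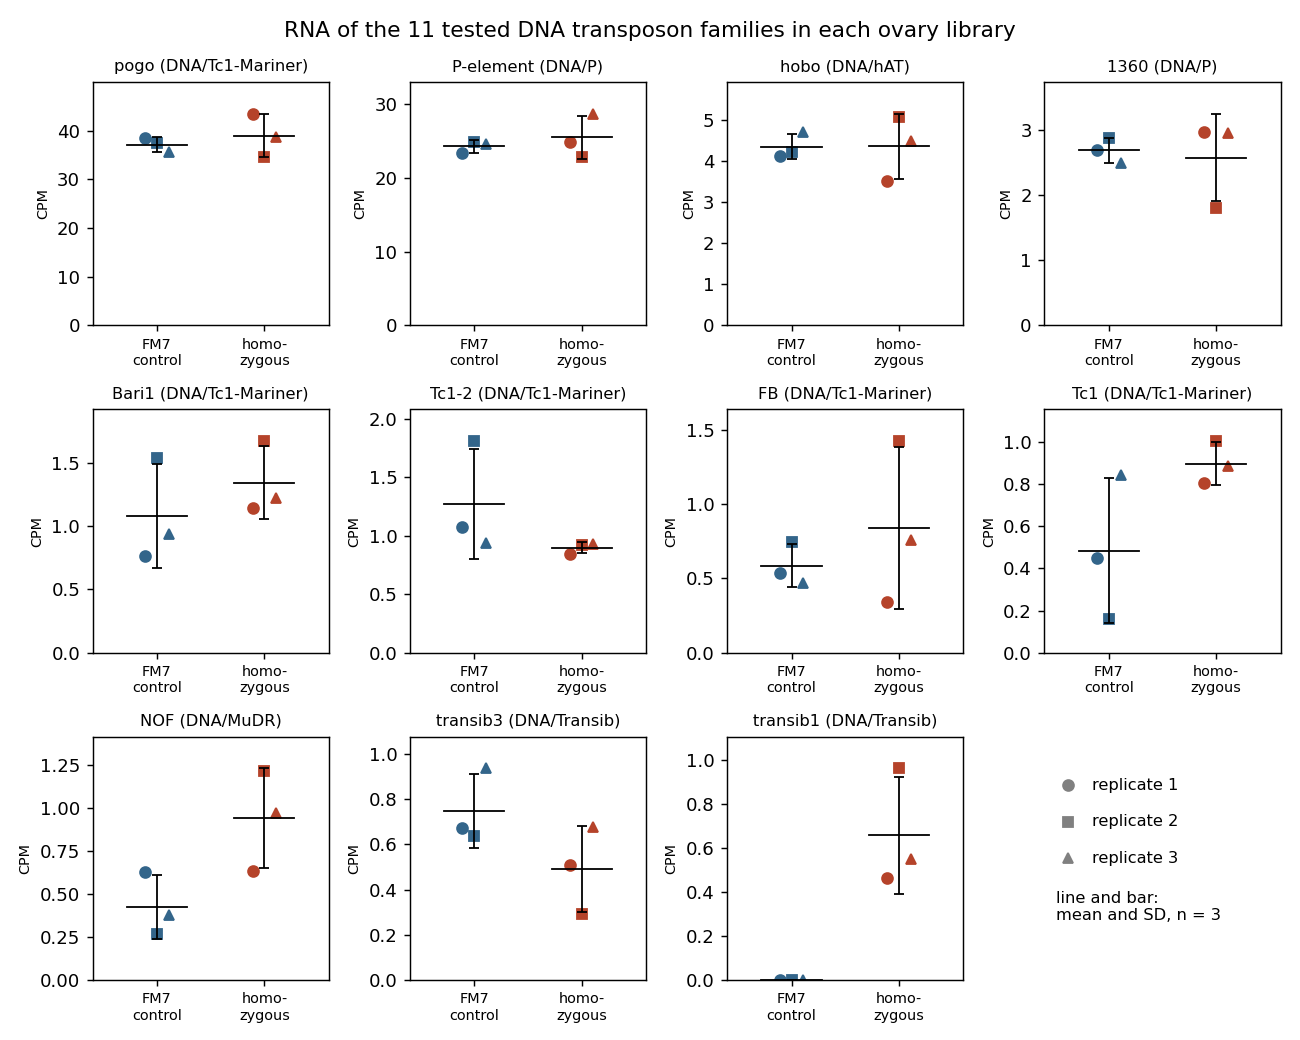
RNA level in CPM (vertical axes, from 0) of the 11 tested families in each library, with circles, squares and triangles for replicates 1, 2 and 3 and the mean and SD of n = 3 as line and bar. transib1 is at 0 in the 3 control libraries and between 0.465 and 0.962 CPM in homozygotes, and pogo and P-element overlap between the groups.

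pogo and P-element held 81.9% of all counts on DNA transposons and Helitrons, 49.5% and 32.4% in turn. These are shares of counts, which are not corrected for the length of an element. pogo, a Tc1-Mariner element, had 1027, 827 and 918 counts in homozygotes and 858, 703 and 759 in controls. In CPM the homozygous libraries ran from 34.6 to 43.4 and the control libraries from 35.6 to 38.5, so the controls lay within the range of the homozygotes. Its log2 fold change was 0.067 (SE 0.08, adjusted p = 0.603), and the 95% interval of the fold ran from 0.917 to 1.20. A rise of the size of the LTR median lies outside that interval.

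P-element, the agent of hybrid dysgenesis, spread through wild populations of the species in recent history and is the base of many transgene vectors. It had 590, 547 and 679 counts in homozygotes and 521, 468 and 524 in controls. These are 24.9, 22.9 and 28.7 CPM against 23.4, 24.9 and 24.6 CPM, and the groups overlapped. The log2 fold change was 0.071 (SE 0.09, adjusted p = 0.606), with an interval of the fold from 0.911 to 1.21. The BDGP6.54 annotation has no insertion of this family, and whether its reads came from complete elements or from vectors was not tested.

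Among the families with fewer counts, hobo and 1360 also had nearly equal means. hobo, the hAT element, had 83, 121 and 106 counts in homozygotes and 92, 79 and 100 in controls, or 4.35 ± 0.784 against 4.34 ± 0.304 CPM (SD, n = 3). The interval of its fold ran from 0.721 to 1.39 (adjusted p = 0.994). 1360, an element related to P that is frequent in heterochromatin and on the fourth chromosome, had 70, 43 and 70 counts against 60, 54 and 53. Its mean was 2.57 ± 0.669 CPM in homozygotes and 2.68 ± 0.196 in controls, with an interval of the fold from 0.622 to 1.48 (adjusted p = 0.895). The groups overlapped for each of them. Changes of a size within these intervals remain possible, and the widths reflect the spread between replicates as well as depth.

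The other tested Tc1-Mariner families had changes on both sides of 0, and none passed the threshold. Bari1 had 27, 40 and 29 counts in homozygotes and 17, 29 and 20 in controls (log2 fold change 0.32, SE 0.35, adjusted p = 0.54). Tc1 had 19, 24 and 21 counts against 10, 3 and 18 (0.87, SE 0.50, adjusted p = 0.245), so its control libraries were more spread than its homozygous ones. The log2 fold change of Tc1 was 0.47 without FM7 replicate 2 and 1.51 without FM7 replicate 3 (adjusted p = 0.0761 by edgeR). Tc1-2 had 20, 22 and 22 counts against 24, 34 and 20. All its homozygous libraries lay below its control libraries in CPM, by little at the nearest pair, 0.929 against 0.938 CPM, and its log2 fold change was -0.50 (SE 0.34, adjusted p = 0.326).

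FB and NOF are linked elements, since NOF sequence is found inside some copies of FB, the Foldback element with long inverted repeats. The table places FB under Tc1-Mariner and NOF under MuDR. FB had 8, 34 and 18 counts in homozygotes and 12, 14 and 10 in controls, so the homozygous libraries alone spanned a 4.21-fold range in CPM. Its log2 fold change was 0.53 (SE 0.52, adjusted p = 0.493), and it was -0.085 without homozygous replicate 2. NOF had 15, 29 and 23 counts in homozygotes and 14, 5 and 8 in controls. In CPM each homozygous library lay above each control library, by little at the nearest pair, 0.634 against 0.627 CPM. The log2 fold change of NOF was 1.13 (SE 0.43) with an unadjusted p of 0.0269 and an adjusted p of 0.0945, and from 0.0757 to 0.267 over 14 other fits, so it was not called in any of them. For both FB and NOF the highest library was homozygous replicate 2.

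**Figure D4:**
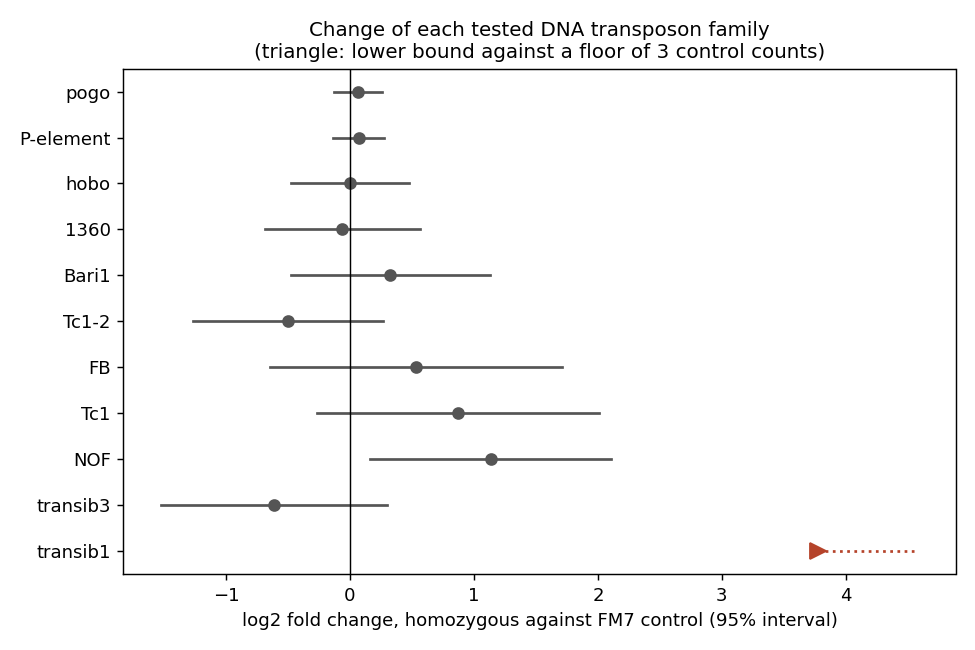
Log2 fold change (horizontal axis, homozygous against FM7 control) of each tested family with its 95% interval from edgeR, ordered by total counts from the top. Intervals are narrowest for pogo and P-element and include 0 for all families drawn with one except NOF. The triangle marks transib1, which has no fitted interval, at its fold against a floor of 3 control counts.

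The families ranked the homozygous libraries differently. Homozygous replicate 2 was the highest homozygous library for 6 of the 11 tested families, hobo, Bari1, FB, Tc1, NOF and transib1, and the lowest for 4, pogo, P-element, 1360 and transib3. It also had the most transposon counts of any library, 253421 against 174152 and 211237 in the other homozygotes. Without pogo and P-element, the remaining families summed to 12.8, 16.9 and 15.1 CPM in homozygotes and 12.2, 13.5 and 12.8 CPM in controls, so these groups overlapped too.

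The 13 families outside the test had at most 40 counts over all 6 libraries. Of these, 5 had at least 20 counts. Summed over each group, S-element had 25 counts in homozygotes against 15 in controls, HB 26 and 14, Tc3 24 and 10, mariner2 23 and 9, and looper1, the PiggyBac-class element, 12 and 11. Count ratios corrected for library size were 1.46 for S-element, 1.63 for HB, 2.10 for Tc3, 2.24 for mariner2 and 0.956 for looper1, and the exact 95% interval included 1 for each, from 0.998 to 5.50 in the case of mariner2. Another 6 families had between 1 and 13 counts, namely transib2, hopper, S2, transib4, Bari2 and hopper2. The untested families together had 139 counts in homozygotes and 78 in controls, or 1.61, 2.59 and 1.65 CPM against 1.30, 1.28 and 1.17 CPM, so the sums did not overlap. In a fit without the filter on low counts, none of the 11 untested families with a count passed, with adjusted p from 0.246 to 0.99, and none had an unadjusted p under 0.05.

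INE-1 and Helitron, the rolling-circle families, had 0 counts in all 6 libraries. The BDGP6.54 annotation lists 2235 insertions of INE-1, the most of any family here, with a median length of 146 bases, and 147 of them overlap an exon. For a count of 0 among 133521722 counts, the limit of 3 counts used for transib1 is 0.0224 CPM. The sources used here do not say whether reads from INE-1 copies could be assigned to the family, and the 0 describes the table and not the transcription of those copies. Helitron has 1 annotated insertion, of 564 bases on X.

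Annotated insertions were matched by name, hobo under H and S-element under S, for 23 of the 24 families, with 3273 insertions in all. pogo had 5092 counts and 50 insertions, hobo 581 counts and 60 insertions, and 1360 had 350 counts and 493 insertions. S-element had 40 counts and 78 insertions, and transib1 had 47 counts and 3 insertions. Short fragments are common among these copies, and the longest annotated pogo insertion is 2123 bases while the median is 186 bases. The strains of this study may carry other copies than the annotated genome.

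**Figure D5:**
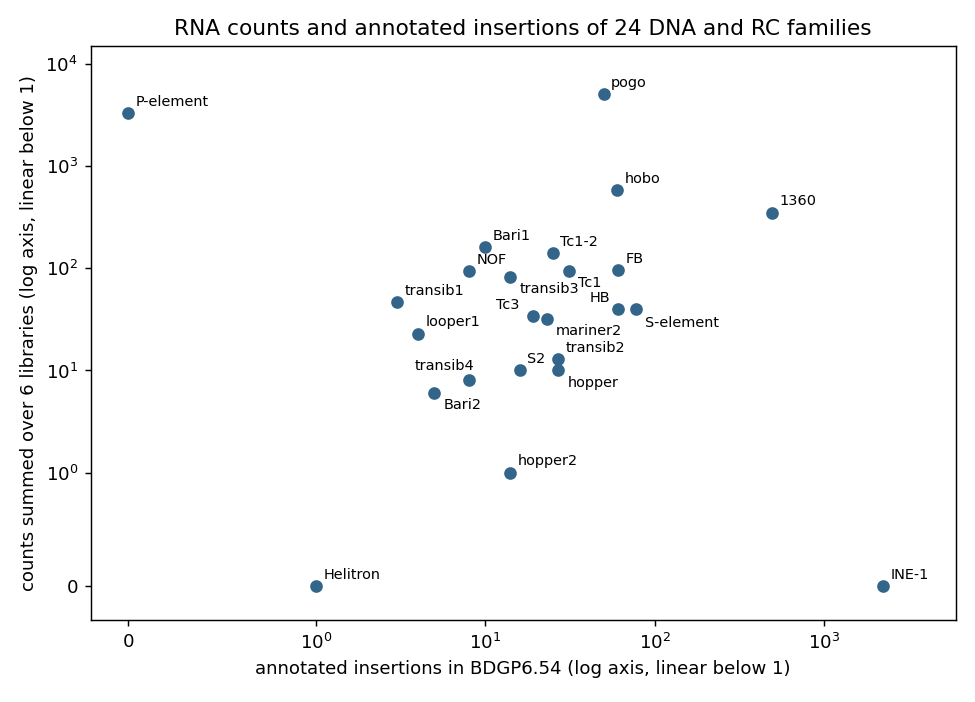
Counts summed over 6 libraries (vertical, log axis, linear below 1) against annotated insertions in BDGP6.54 (horizontal, log axis, linear below 1) for each of the 24 families. P-element has 3329 counts with 0 insertions, and INE-1 has 0 counts with 2235 insertions.

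DNA and RC families make up 3273 of the 5887 insertions of the annotation, and a smaller share of those in the piRNA clusters named above. INE-1 alone holds 2235 of the 3273, with 3 inside flamenco and 1 between Pld and jing. The difference in shares therefore depends in good part on this 1 family. Of 47 annotated insertions inside flamenco (X, 21631891 to 21790731), 4 belonged to DNA or RC families, 3 of INE-1 and 1 of 1360. Of the 90 insertions between Pld and jing, 20 did, among them 6 of 1360, 3 each of hobo and NOF, 2 each of FB and S-element, and 1 each of transib1, transib2, looper1 and INE-1. Families with copies there include transib1, NOF and FB as well as hobo and 1360. Whether such copies bear on the RNA level of a family was not tested.

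Of the annotated insertions of these families, 54.4% overlap a gene. Of 524 tested genes that hold such a copy, 87 were higher, 16.6%, and 50 were lower, 9.54%, against 12.0% and 7.71% of all features. Of the 126 tested genes with a copy in an exon, 17 were higher and 13 lower, 13.5% and 10.3%. The difference of these shares from those of all features was not tested. Examples, chosen after their values were seen, are genes with a copy in an exon on the gene's own strand. Only higher genes were chosen, although 13 of the tested genes with a copy in an exon were lower. Cyp12a4, which encodes a cytochrome P450, holds a 1740-base Bari1 copy (3R, 19137125 to 19138864) and went from 2.05 ± 1.37 to 7.11 ± 0.893 CPM (SD, n = 3, log2 fold change 1.80, SE 0.43, adjusted p = 0.0249 by edgeR). That call was lost without FM7 replicate 1 or any 1 of the homozygous replicates, with an adjusted p up to 0.105. CG42346 holds a 1505-base HB copy (X, 22882039 to 22883543) and rose from 0.574 ± 0.086 to 2.27 ± 0.579 CPM (1.97, SE 0.32, adjusted p = 0.0055 by edgeR). Kif3C, a kinesin gene, holds an 1132-base 1360 copy (4, 1167772 to 1168903) and rose from 0.212 ± 0.107 to 0.969 ± 0.0371 CPM (2.18, SE 0.43, adjusted p = 0.011 by edgeR). Itgbn, an integrin gene, holds a 289-base INE-1 copy (2L, 21057274 to 21057562) and rose from 1.79 ± 0.332 to 8.84 ± 1.01 CPM (2.31, SE 0.21, adjusted p = 5.5e-04 by edgeR), while INE-1 itself was listed at 0. CG42346, Kif3C and Itgbn were called in all 6 fits without 1 library.

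Among 16 host genes for excision and repair of DNA transposons, 1 was higher and 2 were lower, with a median log2 fold change of -0.08. With 12.0% of all features called higher and 7.71% lower, these counts are near the background and are no result about the list. Xrp1, which encodes a bZIP factor that binds DNA together with Irbp18, rose from 64.1 ± 4.49 to 136.6 ± 20.5 CPM (SD, n = 3, log2 fold change 1.09, SE 0.11, adjusted p = 9.4e-04 by edgeR). Irbp, the fly Ku70 of end joining, whose protein was found through its binding to P element inverted repeats, was lower (-0.20, SE 0.06, adjusted p = 0.0404), and so was Blm, a RecQ helicase gene that acts in repair of the gap left by P excision (-0.20, SE 0.05, adjusted p = 0.0317). The Irbp call was lost without FM7 replicate 1 or 3 or homozygous replicate 2 or 3, with an adjusted p up to 0.129. The Blm call was lost in 5 of the 6 fits without 1 library, all but that without FM7 replicate 3, with an adjusted p up to 0.0971. With library sizes alone as the scaling, 0 genes of the list were lower. Psi, which encodes the inhibitor of P transposase splicing in somatic cells, was at 124 ± 4.67 CPM in homozygotes and 131 ± 3.4 in controls (-0.075, SE 0.05, adjusted p = 0.317), and its partner gene Hrb27C was not past the threshold either (-0.085, SE 0.07, adjusted p = 0.423).

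Of 30 tested piRNA genes, 4 were higher and 4 lower, with a median log2 fold change of 0.0022, and these counts too are near the 12.0% and 7.71% of all features. qin (0.43, SE 0.07, adjusted p = 0.0064 by edgeR) and krimp (0.28, SE 0.06, adjusted p = 0.0114), both of the germ line nuage where transposon RNA is cut, were higher. The Argonaute gene aub was higher as well (0.22, SE 0.07, adjusted p = 0.0475). moon (-0.65, SE 0.07, adjusted p = 0.001), which encodes a transcription factor of germ line piRNA clusters, nxf2 (-0.33, SE 0.05, adjusted p = 0.0053), of Piwi-directed transcriptional silencing, and tj (-0.87, SE 0.08, adjusted p = 5.5e-04), the follicle cell factor of the series' title, were lower. The aub call was lost in all 6 fits without 1 library, with an adjusted p up to 0.16, and the krimp call without homozygous replicate 3 (adjusted p = 0.056). The number higher was 2 in most of these fits and 1 without homozygous replicate 3. AGO3, the partner of Aub in the ping-pong cycle, was not past the threshold (-0.034, SE 0.06, adjusted p = 0.697).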

How the data were processed

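Ovarian polyA RNA of 6 libraries was analysed. TRIzol extraction and a strand-specific mRNA kit were used, per the labels' protocols. The authors deposited raw counts, 1 row for each gene or transposon family. The submitters' processing notes list DESeq2 1.30.1, STAR 2.7.8a and featureCounts 2.0.1 with no settings. The sources used here give neither the genome build, nor the treatment of reads that map to several copies, nor the family sequences, and these decide which reads count for a family. Controls are called wild type in their titles, but FM7 was taken from their genotype field.

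Genes and families were tested together on the counts by edgeR 4.0.16, R 4.3.3 (TMM scaling, filterByExpr by group, robust quasi-likelihood test) with p-values adjusted by Benjamini-Hochberg and called under 0.05. The filter kept 9229 of 17760 features. CPM values use TMM-scaled library sizes. Fitted log2 fold changes carry SE from the quasi-likelihood F statistic. The procedure was tested on simulated data, with changes placed only in features of higher mean level than transib1, NOF, FB, Tc1 and transib3. Recovery of changes at the level of those families was not tested. DESeq2 1.42.0 and limma 3.58.1 (voom) were alternatives, with other scalings, filters, a replicate block and each library left out. Chi-square per degree of freedom between replicates was 8.61 to 41.6, above sampling noise, and each was counted as a sample. Insertions come from Ensembl's BDGP6.54 annotation, with duplicate positions counted once. All tested families are named, untested ones with at least 20 counts are described singly, and from each host gene list up to 6 called genes are given, by adjusted p. The members and lists were chosen with earlier results of these data known.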

Additional observations from a re-analysis of the deposited data

How the results depend on the processing

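transib1 was called in each fit that kept it, and no other DNA transposon family was called in any fit. It passed the filter on low counts only through the homozygous libraries. The fits reuse the same counts, so repeated calls are not separate support. With a filter of 1 CPM in 3 libraries, 5 families were tested and 0 were higher. Of 159 values of single families under other settings, 147 kept their direction and side of the threshold, and 12 changed sign, all in hobo, 1360, FB, pogo or P-element, none of which was called. hobo went to -0.0063 without a filter, -0.011 with limma-voom and -0.0103 with the replicate block, and 1360 to 0.022 with library sizes alone. Without 1 library, the range was -0.123 to 0.134 for hobo, -0.176 to 0.138 for 1360, -0.085 to 0.901 for FB, -0.0204 to 0.142 for pogo and -0.022 to 0.141 for P-element. The ratio of the summed share, 1.13 with a spread of 0.0595, was 0.195 over transposon counts alone and 1.07 with TMM-scaled library sizes, a setting chosen after seeing the data, and 1.11 to 1.16 without 1 library. Over all features, 548 to 1009 were higher and 227 to 855 lower without 1 library, and 323 were lower with library sizes alone. Same-numbered replicates deviated with correlations of -0.303, -0.071 and -0.039, so the numbers were not taken to pair samples, and no library correlated best with the one of its own number. With the replicate block, 700 features were higher and 349 lower, and transib1 had an adjusted p of 0.0236. The untested families had at most 40 counts each, which limits what could be detected.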
